A study of Rattus norvegicus with 24 samples.

Results

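The 31 genes described here are those whose read share in rat plantaris muscle separated 2 selectively bred lines, LRT and HRT, completely, both in control muscle and after functional overload. A gene was taken when all 6 LRT libraries lay above all 6 HRT libraries in each state (10 genes), or below them in each state (21 genes). The measure was CPM, the count of a gene divided by the library total and multiplied by 1000000, and the mean over all 24 libraries had to be 1 CPM or more. Of 31998 genes in the table, 13900 reached that mean, so the rule kept 0.223% of them, 0.0719% as higher and 0.151% as lower. The members were chosen by the CPM values of LRT against HRT in both states, and the line difference is given below as a description with no test.

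RNA came from the plantaris, a calf muscle of mixed and mostly fast fibres, of female rats aged 14 months from generation 19 of the lines. The LRT and HRT lines were bred for a low and a high gain in running capacity with endurance training. The 4 groups of 6 libraries were HRT control (HRT CTRL), LRT control (LRT CTRL), HRT overload (HRT FO) and LRT overload (LRT FO). For overload, the gastrocnemius and soleus of one leg were ablated and the plantaris was taken 14 days later. The labels name no other agent or allele, and they leave the source of the control muscles unstated, be it other animals, sham surgery or the other leg. P-values therefore measure the spread between these libraries.

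As background, the gastrocnemius, soleus and plantaris share the work of extending the ankle, so removing the first pair leaves the plantaris to carry their load. It then grows over days to weeks, with growth of its fibres, a remodelled matrix and an influx of other cells. Lines kept apart by selective breeding come to differ in allele frequency at many places in the genome, by selection and by drift. A difference in RNA level seen both at rest and under load is one that the state of the muscle does not remove. No genotypes were analysed here.

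The table gives Ensembl gene IDs without names, and 0 IDs had an entry in the list of rat gene symbols at hand. The functions and genomic positions of the 31 genes, and the markers of muscle and other cell types, were therefore not analysed here, and 2 IDs per direction are printed for each ranking. Library totals ran from 26997674 to 34254957 counts. The RNA integrity number (RIN) averaged 8.27 ± 0.216 (SD, n = 6) in HRT CTRL, 8.28 ± 0.147 in LRT CTRL, 8.97 ± 0.327 in HRT FO and 8.67 ± 0.258 in LRT FO. In whole muscle, fewer cells of a type and less RNA per cell cannot be told apart.

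The scaling of the libraries set much of the membership. With library totals, as in the rule, the median gene of the 13900 differed between the lines, LRT minus HRT, by -0.08 in CTRL and -0.14 in FO on the log2 scale. Scaling by trimmed mean of M values (TMM), which assumes that most genes do not differ, moved these medians to 0.01 and 0.00. Under TMM the rule found 18 genes, 16 higher and 2 lower in LRT. All 10 genes higher in LRT were kept, against 2 of the 21 genes lower in LRT. Each of the 31 genes still had the same sign of line difference in the TMM-scaled fit in both states. The rule chose the genes by that sign in the same libraries, so this is no separate support. For the 21 genes lower in LRT, the median log2 difference in CTRL was -0.41 by CPM and -0.31 under TMM. The smallest of them under TMM was -0.04. The other 19 genes no longer met the rule. By library totals these 19, all lower in LRT, had a median difference of 1.31-fold in CTRL (range 1.098 to 6.38). For the 12 that were kept it was 1.69-fold (range 1.24 to 4.57). With the slope of each gene on RIN removed the rule found 47 genes, and without LRT FO replicate 2 it found 52.

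**Figure D1:**
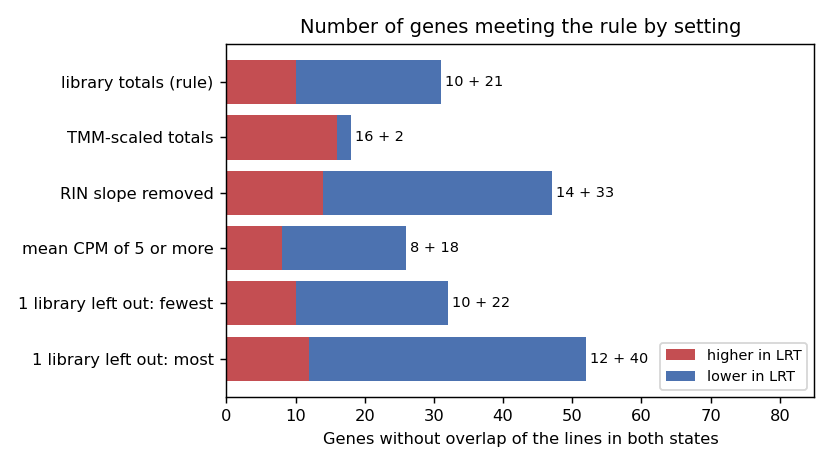
Number of genes meeting the rule (x axis) under the rule as given and under other settings, split into genes higher in LRT (red) and lower in LRT (blue). The rule gave 10 higher and 21 lower, TMM scaling gave 16 higher and 2 lower, and leaving out 1 library gave between 32 and 52 genes in all.

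The complete separation was uncommon in either state alone. In control muscle the lines did not overlap for 99 genes higher (0.712% of the 13900) and 343 lower (2.47%) in LRT, 3.18% in all. In overloaded muscle they did not overlap for 65 genes higher (0.468%) and 266 lower (1.91%), 2.38% in all. The 10 genes higher in LRT in both states made up 10.1% of the first list of higher genes and 15.4% of the second. The 21 lower genes made up 6.12% and 7.89% of the lists of lower genes. Under TMM the base was 13837 genes with a mean of 1 CPM or more, and the balance within each state was different. Of these, 287 were higher and 132 lower in CTRL, and 134 were higher and 99 lower in FO. One more gene, ENSRNOG00000013018, separated the lines in opposite directions (0.00719% of genes) and is named after its values were seen. It averaged 12.4 ± 2.92 CPM (SD, n = 6) in HRT CTRL, 21.8 ± 7.17 in LRT CTRL, 50.2 ± 8.33 in HRT FO and 31.5 ± 6.71 in LRT FO.

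The limit on the mean CPM left few genes near it. The members just inside had means of 1.26, 1.65 and 2.11 CPM. Outside it, 3 genes met the separation, with means of 0.320, 0.205 and 0.0872 CPM. A limit of 0.5 CPM gave the same 31 genes. The members covered a wide range of read share, with a median of 16.1 CPM against 12.6 for all 13900 genes, and 3 of them held over 900 CPM. CPM is not per gene length, so it does not rank the members by transcript number.

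The line difference was under 1.5-fold for 19 of 31 genes in CTRL and for 15 in FO, and over 2-fold for 5 and 3 genes. The 10 genes higher in LRT had a median difference of 1.65-fold in CTRL (range 1.24 to 4.57) and 1.80-fold in FO (range 1.34 to 4.68). The 21 lower genes had a median of 1.32-fold in CTRL (range 1.098 to 6.38) and 1.42-fold in FO (range 1.18 to 2.50). The empty gap between the nearest LRT and HRT libraries was narrower still, with a median of 1.08-fold in CTRL and 1.09-fold in FO. It was under 1.1-fold for 18 genes in CTRL and for 16 in FO, and its narrowest values were 1.003-fold and 1.01-fold. The rule asks for a spread that is small beside the line difference. The median coefficient of variation (SD over mean) in HRT CTRL was 15.1% for the 10 genes higher in LRT and 6.28% for the 21 lower genes, against 10.1% for all 13900 genes. In HRT FO these medians were 14.6%, 7.87% and 16.9%.

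The gene highest in LRT relative to HRT was ENSRNOG00000046163. It ran from 0.0791 to 1.22 CPM in HRT CTRL (median 0.460) and from 1.59 to 2.32 in LRT CTRL (median 2.08). After overload it ran from 0.193 to 0.952 CPM in HRT (median 0.398) and from 1.19 to 3.25 in LRT (median 1.57). The LRT mean of log2 CPM was higher by 2.19 in CTRL and by 2.23 in FO. The HRT levels rest on few reads, the lowest library holding 2.23 estimated counts, and the HRT libraries of each state spread more than 4-fold. Across states the highest HRT control library lay above the lowest LRT overload library, so the lines were separate within each state and not over all 24 libraries.

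ENSRNOG00000042253 was the second by this ranking and had the widest gap in control muscle. HRT CTRL libraries ran from 2.54 to 3.52 CPM (median 3.05) and LRT CTRL libraries from 9.53 to 11.2 (median 10.7). HRT FO libraries ran from 3.72 to 7.19 CPM (median 3.95) and LRT FO libraries from 8.64 to 10.9 (median 9.56). All 12 LRT libraries lay above all 12 HRT libraries, which held for this gene alone among the 10 higher in LRT and for 6 of the 21 lower genes. In order, HRT CTRL lay below HRT FO without overlap and both lay below the LRT groups, while LRT FO and LRT CTRL overlapped. The line difference in log2 CPM was 1.80 in CTRL and 1.08 in FO.

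Among genes lower in LRT, ENSRNOG00000014366 had the largest difference. HRT CTRL libraries ran from 2.04 to 2.64 CPM (median 2.45) and LRT CTRL libraries from 0.223 to 1.28 (median 0.301). After overload HRT ran from 3.17 to 4.80 CPM (median 3.52) and LRT from 0.478 to 3.03 (median 1.67). The LRT CTRL levels rest on few reads, the lowest library holding 6.98 estimated counts. LRT CTRL replicate 5, at 1.28 CPM, was more than double the next library of its group, at 0.470 CPM. The line difference was -2.67 in CTRL and -1.32 in FO on the log2 scale. In overloaded muscle only a 1.05-fold gap kept the lines apart, and under TMM they overlapped.

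ENSRNOG00000025596 came next among the lower genes and kept its place under TMM. Its HRT CTRL libraries ran from 2.26 to 3.91 CPM (median 2.74) and its LRT CTRL libraries from 0.781 to 2.01 (median 1.49). After overload HRT ran from 4.61 to 6.30 CPM (median 5.47) and LRT from 2.60 to 4.03 (median 3.17). The line difference was -1.10 in CTRL and -0.71 in FO on the log2 scale. LRT FO and HRT CTRL covered much the same range, so the level of LRT muscle after overload was near that of HRT muscle without it.

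**Figure D2:**
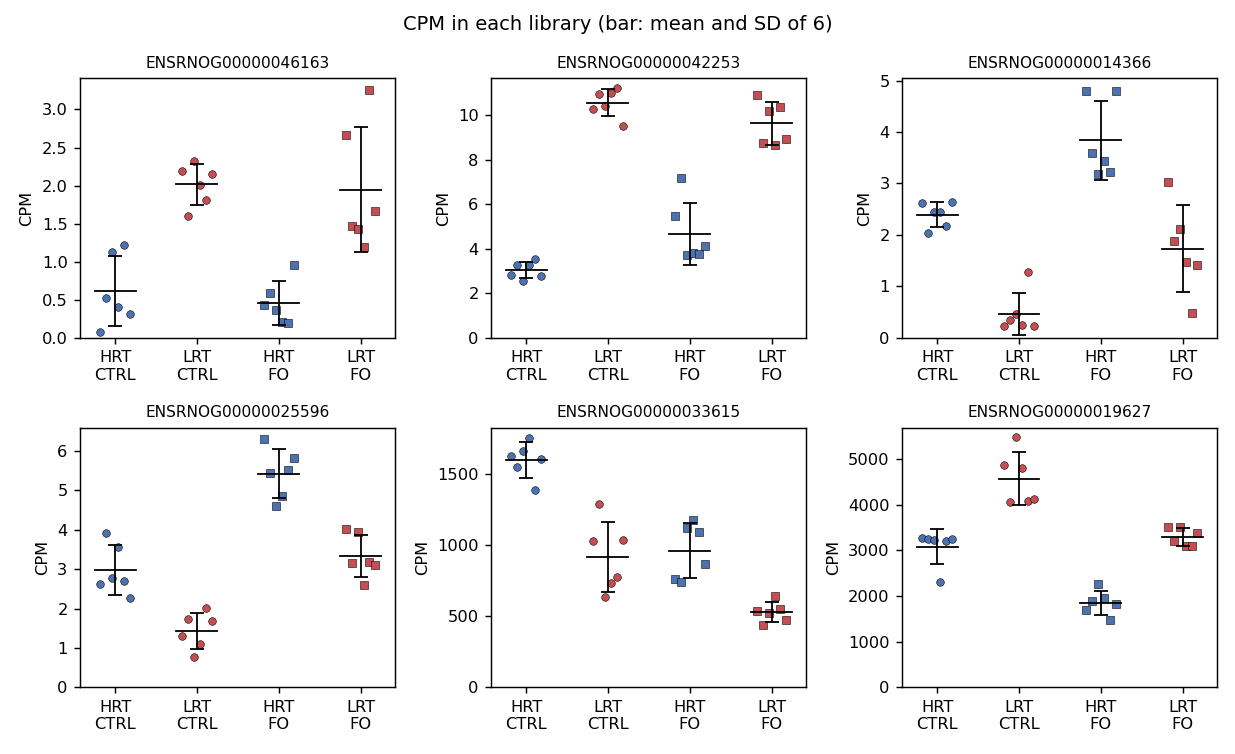
CPM (y axes, from 0) of 6 of the genes in each library by group; HRT is blue, LRT is red, circles are control, squares are overload, and bars give the mean and SD of 6 libraries. In each panel the LRT and HRT points of a state do not overlap, as the rule requires, while ENSRNOG00000033615 and ENSRNOG00000019627 lie lower after overload in both lines.

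The size of the line difference was similar in the 2 states for most members. Between CTRL and FO the size moved by less than 0.25 on the log2 scale for 23 of 31 genes and by more than 0.5 for 3. It was larger in FO for 20 genes and larger in CTRL for 11, with a median change of 0.06. The largest moves were towards a smaller difference after overload, at -1.35 for ENSRNOG00000014366 and -0.72 for ENSRNOG00000042253. The largest move the other way was 0.31. These differences are made of the contrasts that chose the genes and were not tested.

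**Figure D3:**
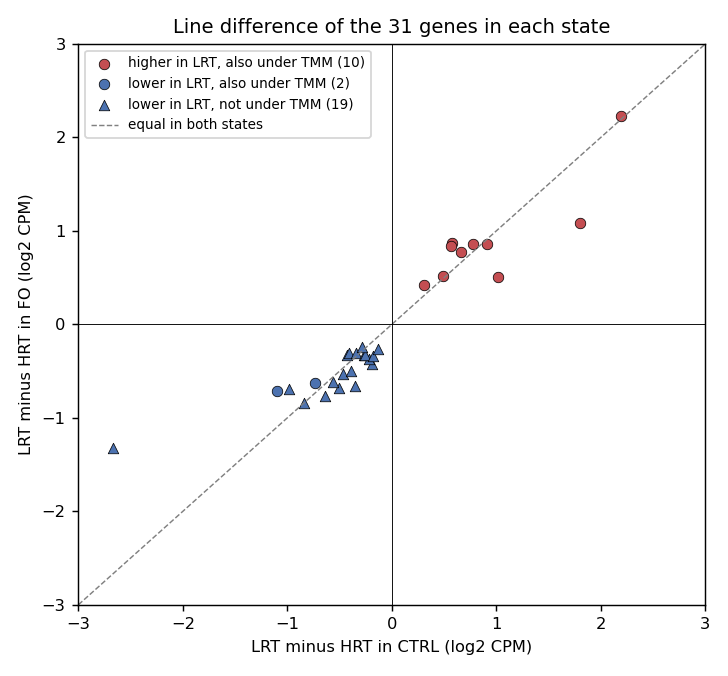
Line difference in mean log2 CPM in control muscle (x axis) and in overloaded muscle (y axis) for the 31 genes; circles were also found under TMM scaling and triangles were not, and the dashed line marks equal differences. All points lie in the lower left or upper right of the plot because of the rule, and the blue triangles, 19 genes, are mostly near the origin.

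The overload response as the mean of the 2 lines is a contrast that the rule did not use. It was tested in a fit across all genes. The rule does limit the spread within groups, which the test also uses, so its p-values are not free of the selection. With edgeR's quasi-likelihood test and Benjamini-Hochberg adjustment, 5 of the 31 genes rose with overload, 17 fell and 9 did not pass 0.05. Of the members 16.1% rose and 54.8% fell, against 34.6% and 36.0% of all 16661 genes tested. The 16661 include genes with a mean under 1 CPM, which the rule left out. Among genes outside the set with a mean of 1 CPM or more, the 13900 less the 31 members, 4727 rose and 5600 fell. Falling genes thus outnumbered rising genes there too. The median log2 fold change of the 31 members was -0.25, against -0.03 for all genes tested. Of the 10 genes higher in LRT, 1 rose and 5 fell, and of the 21 lower genes 4 rose and 12 fell. Without regard to sign, the median response was 0.39 on the log2 scale against 0.37 for all genes. The response was beyond 2-fold for 2 of 31 members (6.45%), against 16.1% of all genes. The 12 genes that also met the rule under TMM, the scaling of this test, had 3 rising and 5 falling. The other 19 had 2 rising and 12 falling.

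By CPM, which is scaled to library totals, overloaded libraries lay above all controls of their line for 8 members in HRT and 5 in LRT, where 32.7% and 27.6% of the 13900 genes did. They lay below all controls for 4 members in HRT and 1 in LRT, where 7.91% and 5.86% did.

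Scaling moved the balance of rising and falling members. With library totals alone, 12 members rose and 10 fell, where 51.7% and 16.0% of all genes tested did, and the median of all genes moved from -0.03 to 0.24. The members' median was then 0.01, again below that of all genes. The 5 genes that rose with TMM were among the 12, and 1 gene that fell with TMM rose with totals. The spread within groups also differed between rising and falling genes. Among other genes with a mean of 1 CPM or more, the median coefficient of variation in HRT FO was 24.8% for the 4727 that rose and 11.5% for the 5600 that fell, and the rule sets a limit on spread relative to the line difference. The part of this in the balance of the members was not tested.

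ENSRNOG00000014366 had the largest rise, 2.01-fold over both lines, or 1.01 in log2 terms with an SE of 0.233 (edgeR adjusted p = 0.000492). For fold changes, values after ± are SEs. The LRT CTRL level of this gene rests on few reads, as given above. The log2 fold change was 1.63 ± 0.356 in LRT (edgeR adjusted p = 0.000432; 2.23 and 4.36e-06 without LRT CTRL replicate 5) and 0.38 ± 0.301 in HRT (edgeR adjusted p = 0.278; 0.0094 in a fit to the HRT groups alone). By CPM the 6 HRT FO libraries lay above all HRT CTRL libraries, while in LRT the groups overlapped at LRT CTRL replicate 5 and LRT FO replicate 5. The second, ENSRNOG00000025596, rose in both lines, by 0.57 ± 0.158 in HRT (edgeR adjusted p = 0.00305) and 0.98 ± 0.168 in LRT (edgeR adjusted p = 2.93e-05), with no overlap between the states in either line.

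ENSRNOG00000033615, lower in LRT, had the largest fall, at -1.01 ± 0.123 over both lines (edgeR adjusted p = 1.06e-07). HRT CTRL libraries ran from 1384 to 1754 CPM (median 1616) and HRT FO libraries from 739 to 1172 (median 979). LRT CTRL libraries ran from 637 to 1286 CPM (median 900) and LRT FO libraries from 437 to 644 (median 532). The states did not overlap in HRT, and in LRT they overlapped narrowly, between 637 and 644 CPM. The fall was nearly equal in the lines, at -0.999 ± 0.174 in HRT and -1.02 ± 0.174 in LRT (edgeR adjusted p = 2.73e-05 and 3.14e-05). By CPM the HRT level was 1.79-fold the LRT level in each state. Under TMM the line difference was -0.72 in CTRL and -0.73 in FO on the log2 scale. The gene did not meet the rule under TMM.

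ENSRNOG00000019627, higher in LRT, fell by -0.87 ± 0.0908 over both lines (edgeR adjusted p = 9.01e-09). HRT CTRL libraries ran from 2307 to 3267 CPM (median 3240) and HRT FO libraries from 1482 to 2275 (median 1850). LRT CTRL libraries ran from 4064 to 5477 CPM (median 4461) and LRT FO libraries from 3089 to 3509 (median 3292). The states did not overlap in either line. The fall was -1.02 ± 0.129 in HRT (edgeR adjusted p = 3.81e-07) and -0.72 ± 0.128 in LRT (edgeR adjusted p = 5.13e-05). The LRT FO median was near the HRT CTRL median, and the libraries of these groups overlapped.

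**Figure D4:**
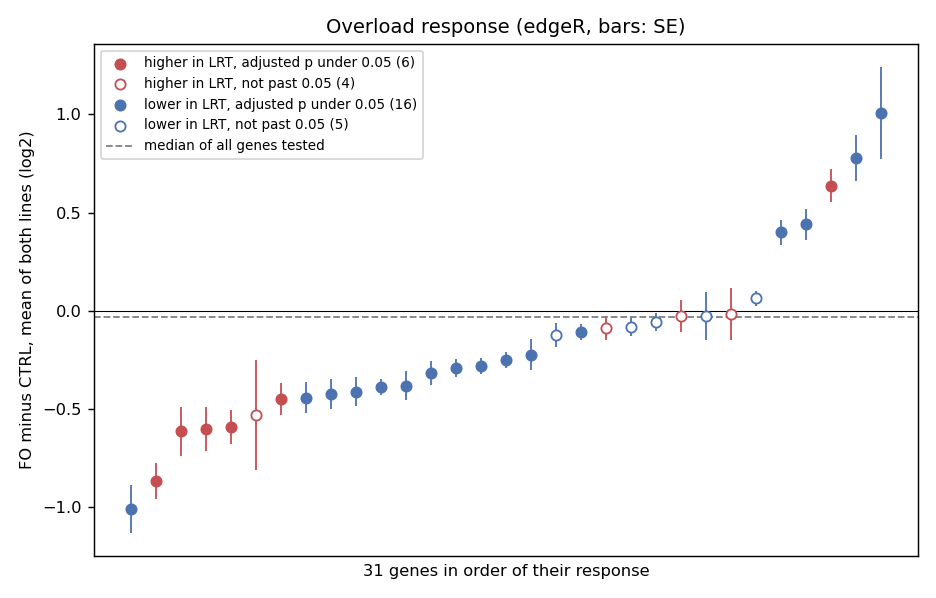
Overload response of the 31 genes in order (y axis: log2 fold change, FO minus CTRL, mean of both lines; bars: SE); filled points passed an edgeR adjusted p of 0.05, and the dashed line is the median of all genes tested, -0.03. Of the points, 17 lie below 0 and passed and 5 lie above 0 and passed, and the range is -1.01 to 1.01.

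Taken by line, 6 members rose and 15 fell with overload in HRT, and 5 rose and 17 fell in LRT (edgeR, adjusted p under 0.05). Each of these responses shares values with the line differences that chose the genes. All genes tested rose in 31.9% and fell in 31.2% of cases in HRT, and 28.9% and 28.3% in LRT. The same direction passed in both lines for 19 members, 4 upward and 15 downward, where 25.5% and 22.6% of all genes tested did. Neither line passed for 8 members (25.8%, against 27.8% of all genes). The responses of the lines lay within 0.25 of each other on the log2 scale for 22 of 31 genes (71.0%, against 63.5% of all genes). They differed by more than 0.5 for 2 (6.45%, against 12.9%), ENSRNOG00000014366 at 1.25 (LRT minus HRT) and ENSRNOG00000042253 at -0.69. ENSRNOG00000042253 was the 1 member called in opposite directions, at 0.32 ± 0.118 in HRT (edgeR adjusted p = 0.0221) and -0.37 ± 0.110 in LRT (edgeR adjusted p = 0.00589). Its mean response was -0.03 ± 0.0810 (edgeR adjusted p = 0.779). The rise in HRT lost its call without HRT FO replicate 2 (0.20, edgeR adjusted p = 0.101), without HRT FO replicate 1 (0.28, edgeR adjusted p = 0.0511) and without HRT CTRL replicate 3 (0.27, edgeR adjusted p = 0.0609). HRT FO replicates 1 and 2 were its highest overloaded HRT libraries, at 5.45 and 7.19 CPM. It also lost its call in a fit to the 2 HRT groups alone (0.33, edgeR adjusted p = 0.054). The fall in LRT lost its call with RIN as a covariate (-0.20, edgeR adjusted p = 0.153) and with library totals alone (-0.13, edgeR adjusted p = 0.406). A difference between the responses equals the change of the line difference between states and was not tested. ENSRNOG00000046163 did not pass in either line, at -0.76 ± 0.431 in HRT and -0.30 ± 0.354 in LRT (edgeR adjusted p = 0.128 and 0.489). The HRT response passed in 2 of 32 other settings, without HRT FO replicate 6 (-1.05, edgeR adjusted p = 0.0464) and without HRT CTRL replicate 1 (-0.99, edgeR adjusted p = 0.028).

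**Figure D5:**
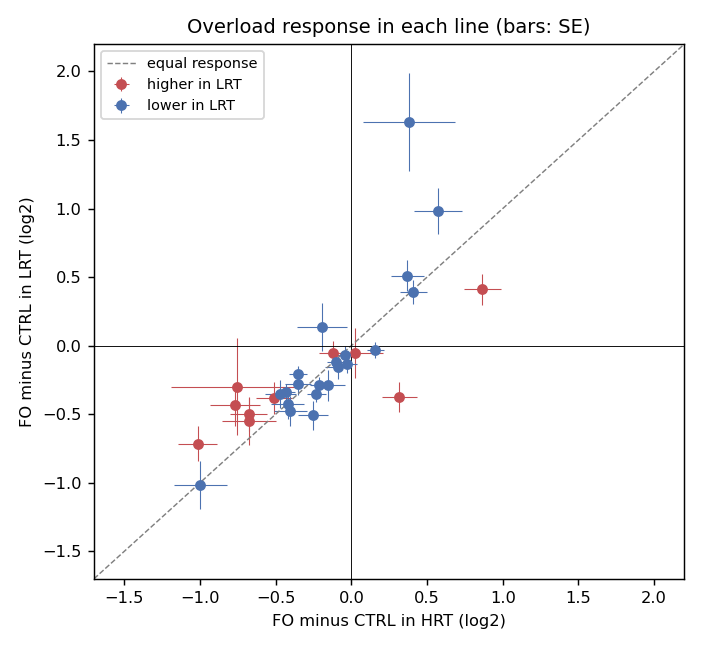
Overload response in HRT (x axis) and in LRT (y axis) for the 31 genes, as log2 fold changes of FO over CTRL with SE bars; red genes are higher and blue genes lower in LRT, and the dashed line marks equal responses. Most points lie near the line, and the blue point farthest above it is ENSRNOG00000014366, at 0.38 in HRT and 1.63 in LRT.

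RIN moved with overload, and so the responses were also fitted with RIN as a covariate. Over both lines 5 members then rose and 17 fell, 5 and 16 of them called without RIN as well. The mean response of ENSRNOG00000046163, -0.53 without RIN (edgeR adjusted p = 0.0927), was then -0.998 (edgeR adjusted p = 0.0487). It also passed in 3 of the 24 fits that left out a library, without HRT FO replicate 6 (-0.65), LRT FO replicate 5 (-0.64) or HRT CTRL replicate 1 (-0.65). Within groups, the correlation of the members' log2 levels with RIN had a median of -0.01 and ran from -0.60 to 0.48 over 24 libraries.

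The members did not vary as 1 block within groups. Deviations of log2(CPM + 0.5) from the group means were correlated for each of the 465 pairs of members over the 24 libraries. The median r was 0.01, against 0.14 over the 96598050 pairs of all 13900 genes. The size of r was over 0.7 for 3 pairs, or 0.645%, against 4.54% of all pairs, and the highest was 0.75. These values share libraries and scaling, and they describe genes chosen by a rule that used their spread.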

How the data were processed

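Per the labels' protocols, TruSeq libraries were prepared from total RNA of homogenised plantaris. The deposited table holds the authors' estimated counts per Ensembl gene, not normalized. Salmon 0.9.1 is named in the submitters' processing notes, as are Rnor_6.0 and rn6. The annotation with its settings is not given in the sources used here. Estimated counts divide shared reads between similar genes, so near-identical genes are uncertain.

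The rule was applied to CPM of the deposited values. For tests, counts were rounded and genes kept by filterByExpr (minimum count 10, minimum total 15), which left 16661 genes and all 31 members. In R 4.3.3 with edgeR 4.0.16, all 24 libraries entered 1 robust quasi-likelihood model with TMM scaling and a term for each group, with Benjamini-Hochberg adjustment and a threshold of 0.05. The code was also run on simulated counts drawn from its own estimates of spread. That run does not test the assumptions of the model or of TMM on these data. SEs are approximate (log2 fold change over the root of F). Alternatives used DESeq2 1.42.0, limma-voom (limma 3.58.1), other scalings, no filter, RIN, a replicate block, fits to 2 groups only, and fits without each library in turn. Plots used matplotlib 3.10.9.

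The members and all choices were made with earlier results of these data known. Named genes are the 2 members per direction with the largest line difference in mean log2 CPM over both states, and the 2 per direction with the largest called mean overload response. Lists of cell type markers were not used, since no IDs could be named. The gene name table covers 47357 genes of the assembly GRCr8.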

Additional observations from a re-analysis of the deposited data

Results flagged for a closer look

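Within the 4 groups, each named gene was checked for a library whose distance to its nearest neighbour took up most of the group's range, by Dixon's criterion at 95%. ENSRNOG00000019627 in HRT CTRL replicate 4 was at 2307 CPM, below the next library at 3201 CPM, a gap of 0.931 of the range. ENSRNOG00000014366 in LRT CTRL replicate 5 was at 1.28 CPM, above the next library at 0.470 CPM, a gap of 0.766 of the range. Over all 31 genes and 4 groups, 124 sets were checked and 4 such libraries were found, or 3.23%. The nominal rate of the criterion is about 1 in 20. The rule limits the spread within these groups, so that rate need not hold for these genes.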

How the results depend on the processing

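The number of genes meeting the rule was 31. It was 18 with TMM-scaled totals and 47 with the slope on RIN removed, 29 of these 47 being among the 31, and the cause of the latter was not tested. Leaving out each library gave 32 to 52, a looser condition by construction, and all 31 were kept each time. Only without LRT FO replicate 2 did the count move over 1.5 times, to 52. With library totals alone, 12 members rose and 10 fell with overload over both lines, and 11 changed in LRT against 22 with TMM. The median shift of all genes goes with this change. With single libraries left out, 5 to 6 members rose and 16 to 19 fell over both lines, 19 to 22 changed in HRT and 20 to 23 in LRT. For the 4 counts of overload responses, the other settings stayed within 1.5 times. The mean response of ENSRNOG00000042253, near 0, turned to 0.25 with library totals, 0.21 with RIN and 0.00091 with no filter, and ran from -0.088 to 0.034 with single libraries left out, turning positive without HRT FO replicate 6 or LRT FO replicate 2. Same-numbered control and overloaded libraries of a line had correlations of their deviations from -0.10 to 0.13. Of 12 libraries, 3 correlated best with their own number. These values cannot tell whether same-numbered libraries came from the same animal, which the labels leave unstated. With the replicate block 5 members rose and 17 fell over both lines, and 20 changed in HRT and 22 in LRT. ENSRNOG00000046163 has few counts in HRT, 2.23 in its lowest library. ENSRNOG00000014366 has few counts in LRT CTRL, 6.98 in its lowest library.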
